A study of Arabidopsis thaliana with 15 samples.

Results

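The 60 genes described here had more RNA in wild-type Arabidopsis thaliana seedlings after UV-B than in white light, had less RNA in the pif4-101 pif5-1 double mutant than in wild type in white light, and had at most a small increase under UV-B in the photoreceptor mutant uvr8-6. They were picked by their measured levels from the 33602 genes of the count table. A gene entered when its mean level in wild type was at least 1.4 times as high under UV-B as in white light, when its mean in pif4-101 pif5-1 was at most 0.7 times that of wild type, when its UV-B to white-light ratio in uvr8-6 was at most 1.3, and when its mean in wild type under UV-B was at least 3 CPM (the counts-per-million unit, reads of a gene scaled by all counted reads of the library). The ratios were taken after 0.5 CPM was added to each group mean. All 60 also passed the filter on low counts, which left 20833 genes tested.

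RNA was sequenced from whole seedlings of the Col-0 accession, 4 days old and grown on plates with sucrose under dim continuous white light. The 5 groups, with 3 libraries each, were wild type after 6 h of added narrowband UV-B, uvr8-6 after the same treatment, uvr8-6 in white light, pif4-101 pif5-1 in white light, and wild type in white light. Each library came from 30 pooled seedlings, and the replicates came from separate plates. Treated and untreated plates stood under different cut-off filters. No UV-B-treated pif4-101 pif5-1 libraries were analysed here, so the comparisons say nothing of the UV-B response in that mutant.

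UVR8 is the plant photoreceptor for UV-B. Light turns its dimers into monomers that bind the COP1 ubiquitin ligase, and the transcription factor HY5 then drives flavonoid and other protective genes. PIF4 and PIF5 are basic helix-loop-helix transcription factors that promote stem elongation, bind G-box and related sequences in target promoters, and are held back by phytochromes and by UV-B acting through UVR8. Their best-known targets are growth and shade genes.

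The libraries held 19.3 to 30.4 M counted reads. UVR8 itself was at 14.8 to 20.7 CPM in the 6 uvr8-6 libraries and at 73.9 to 109 CPM in the 6 wild-type libraries, and PIF5 was at 4.49 to 5.30 CPM in pif4-101 pif5-1 and at 81.6 to 141 CPM in wild type in white light. PIF4 was at 78.0 to 97.0 CPM in pif4-101 pif5-1 and at 65.7 to 174 CPM in wild type in white light, so gene-level counts did not check that allele. FRO5, which encodes a metal reductase, separated libraries within groups: it reached 18.9 CPM in wild-type UV-B replicate 1, 28.6 and 32.2 CPM in uvr8-6 UV-B replicates 1 and 3, 84.4 CPM in uvr8-6 white-light replicate 2 and 61.8 CPM in wild-type white-light replicate 2. It was at most 1.18 CPM in the other 10 libraries. Wild-type white-light replicate 1 stood apart in another way, with 0.208% chloroplast and 0.446% mitochondrial reads. Every other library had at most 0.051% and 0.131%. The part of this difference in the results was not tested.

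The ratios that chose the genes are given as a description only. Across the 60 genes the UV-B to white-light ratio in wild type had a median of 1.90 and a range of 1.41 to 13.5, and it was at least 2 for 24 genes. The pif4-101 pif5-1 to wild-type ratio had a median of 0.609 and a range of 0.157 to 0.693, and it was at most 0.5 for 11 genes. The UV-B ratio in uvr8-6 had a median of 1.05 and a range of 0.440 to 1.3, and it was under 1 for 23 genes. Of the 1830 genes past the UV-B and level conditions, 1254 also passed the uvr8-6 condition and 60 of these passed the pif4-101 pif5-1 condition. A further 28 genes met the UV-B, level and pif4-101 pif5-1 conditions with a uvr8-6 ratio above 1.3.

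The limits of the rule fell among genes of nearly the same values. FLA13, FLA16 and AT3G52790 had the lowest UV-B ratios inside it, at 1.41, 1.41 and 1.44, while BR6OX2, AT2G21100 and IAA14 stood just outside at 1.39 each. CEP3, AT1G07985 and PLAT1 had the highest pif4-101 pif5-1 ratios inside, at 0.693, 0.690 and 0.686, and AT1G78720, AT1G68440 and AIRP2 stood just outside at 0.702, 0.702 and 0.704. For the uvr8-6 ratio, AT3G52790, CYP96A1 and AT1G68620 were inside at 1.3, 1.29 and 1.28, and MYB4, AT4G17280 and ATSPS4F were outside at 1.34, 1.35 and 1.41. For the level, AT1G72490, RK2 and TBL19 were inside at 3.11, 3.65 and 4.23 CPM, and AT1G70985, AT5G44568 and RLP47 were outside at 3.00, 2.93 and 2.83 CPM.

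Seen library by library, the 60 genes formed 3 tiers, an order that the conditions of the rule largely fix and that is only described here. Relative to the wild-type white-light mean of each gene, the median over the genes was 0.93, 1.05 and 0.74 on the log2 scale in the wild-type UV-B libraries, 0.05, 0.14 and 0.14 in uvr8-6 under UV-B, and -0.02, 0.14 and 0.14 in uvr8-6 in white light. It was -0.99, -0.72 and -0.70 in the pif4-101 pif5-1 libraries and -0.04, 0.08 and -0.02 in the wild-type white-light libraries themselves. In each of the 3 pif4-101 pif5-1 libraries all 60 genes were below the wild-type white-light mean. The mean was highest in wild type under UV-B for 59 genes, the exception being AT3G52790, and lowest in pif4-101 pif5-1 for 59 genes, the exception being MIOX4; uvr8-6 under UV-B held the extreme for both.

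**Figure D1:**
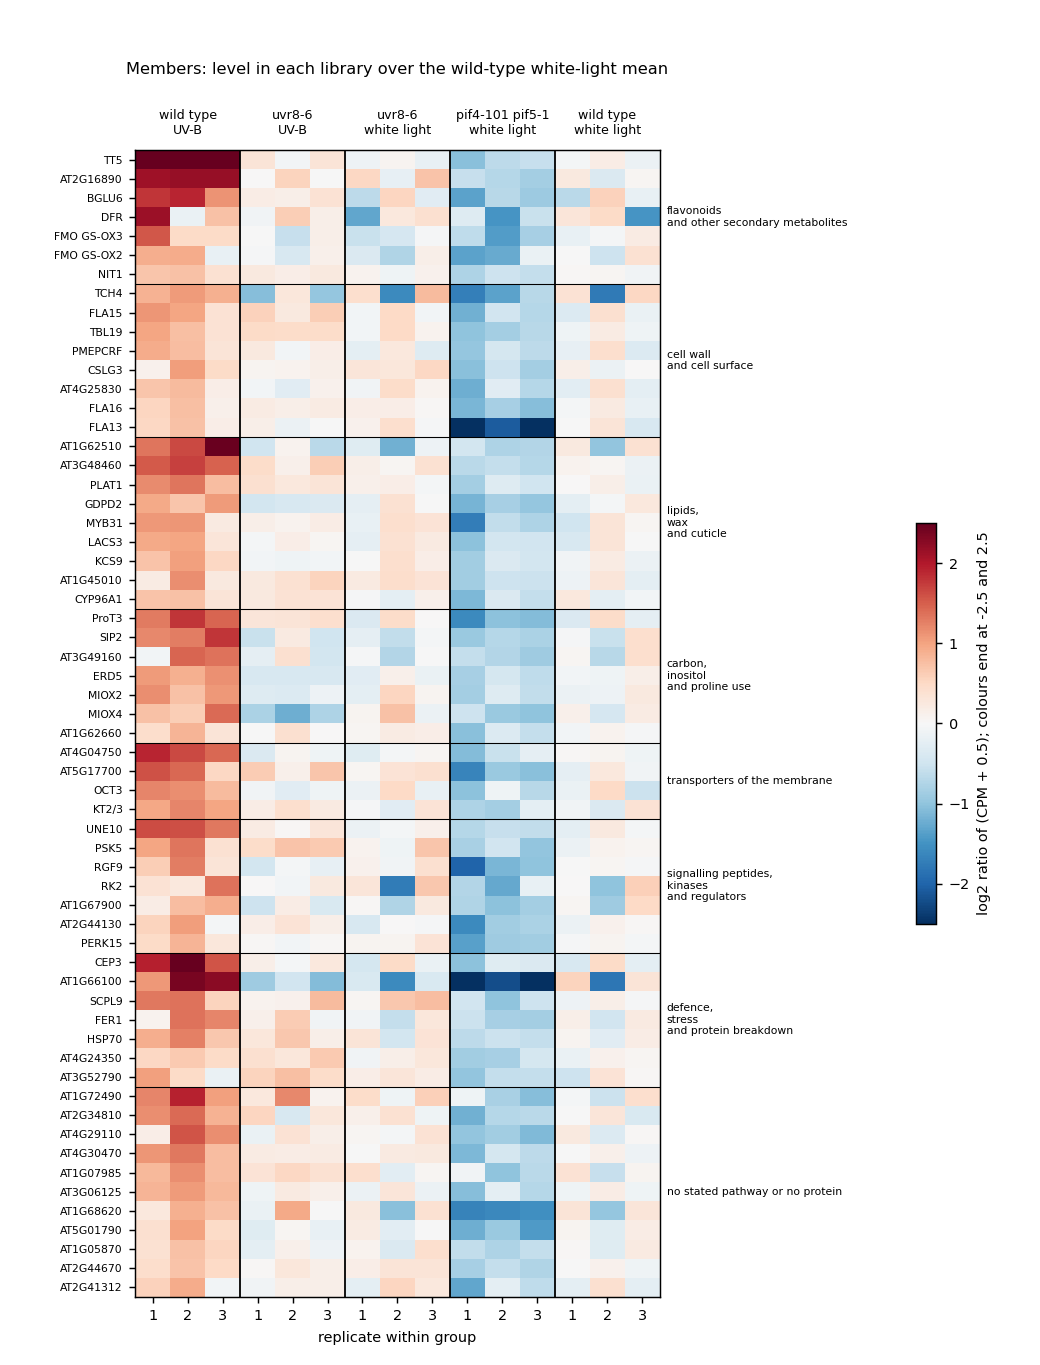
Level of each of the 60 genes (rows, by role) in each of the 15 libraries (columns, by group), as the log2 ratio of CPM + 0.5 to the wild-type white-light mean of that gene. The wild-type UV-B columns are red (above 0) for 59, 59 and 56 of the 60 genes, the pif4-101 pif5-1 columns are below 0 for all 60, in a few cells only just, and most uvr8-6 cells are pale; colours end at -2.5 and 2.5.

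The groups did not overlap for most of the genes, which the rule favours. All 3 wild-type UV-B libraries were above all 3 wild-type white-light libraries for 40 of the 60 genes, against 14.3% of tested genes. All 3 pif4-101 pif5-1 libraries were below all 3 wild-type white-light libraries for 48 genes, against 14.2% of tested genes. Wild type under UV-B stood above all other 12 libraries for 28 genes, against 7.41% of tested genes, and pif4-101 pif5-1 stood below all other libraries for 43 genes, against 3.73%.

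The members called by the test in the comparisons that the rule used are likewise only described. With edgeR's quasi-likelihood test at a Benjamini-Hochberg adjusted p under 0.05 (called, in what follows), 53 of the 60 rose in wild type under UV-B, where 16.1% of all tested genes rose, with a median log2 fold change of 1.11 against -0.01 over all tested genes. In white light 22 of the 60 fell in pif4-101 pif5-1 relative to wild type, where 3.54% of all tested genes fell, with a median of -0.73 against 0.00. The second count was the less steady: it was 36 with DESeq2, 9 when only the 6 compared libraries were fitted, 10 without wild-type white-light replicate 1, 9 without pif4-101 pif5-1 replicate 1 and 14 without pif4-101 pif5-1 replicate 3. Over all tested genes the calls in either direction moved as well, from 1095 to 1798, 278, 335, 381 and 412 in the same order.

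**Figure D2:**
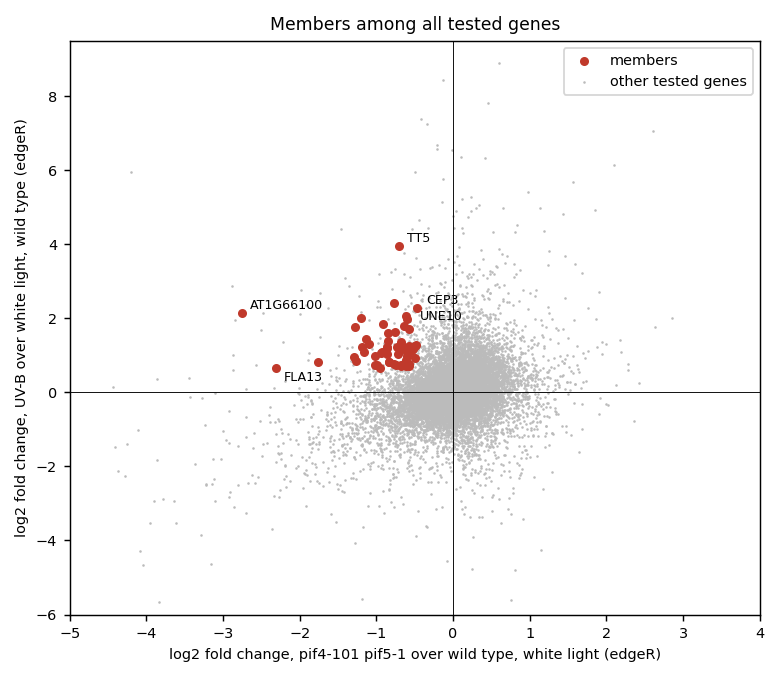
Log2 fold change of UV-B over white light in wild type (vertical axis) against that of pif4-101 pif5-1 over wild type in white light (horizontal axis), both from edgeR, for the 60 genes (red) and the other tested genes (grey). The rule places the red points in the upper left, from TT5 at the top to AT1G66100 and FLA13 at the far left; both axes share the wild-type white-light libraries.

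Promoter sequence is shown for 7 of the genes, because binding of G-boxes is the known property of PIF4, PIF5 and HY5. Each window is the 300 bases before the annotated gene start, written in the direction of the gene, from the RefSeq annotation of assembly TAIR10.1. Capitals mark 3 motifs searched on both strands. They are the G-box, with the letters CACGTG, the bare ACGT core that every G-box contains, and the PBE-box of the phytochrome-interacting factors, with the letters CACATG. The first 4 genes were those with the lowest larger adjusted p over the comparisons of UV-B and of pif4-101 pif5-1 with wild type in white light: AT2G44670 at chr2:18424811-18425110 on the plus strand, FLA16 at chr2:15059463-15059762 on the plus strand, PERK15 at chr1:19472583-19472882 on the minus strand and GDPD2 at chr5:16441355-16441654 on the plus strand.
AT2G44670: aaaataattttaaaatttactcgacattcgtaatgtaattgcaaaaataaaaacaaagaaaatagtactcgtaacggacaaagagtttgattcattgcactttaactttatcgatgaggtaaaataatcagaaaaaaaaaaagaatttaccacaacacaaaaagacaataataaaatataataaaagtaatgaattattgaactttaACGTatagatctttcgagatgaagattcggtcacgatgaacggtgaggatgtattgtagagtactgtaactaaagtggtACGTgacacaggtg
FLA16: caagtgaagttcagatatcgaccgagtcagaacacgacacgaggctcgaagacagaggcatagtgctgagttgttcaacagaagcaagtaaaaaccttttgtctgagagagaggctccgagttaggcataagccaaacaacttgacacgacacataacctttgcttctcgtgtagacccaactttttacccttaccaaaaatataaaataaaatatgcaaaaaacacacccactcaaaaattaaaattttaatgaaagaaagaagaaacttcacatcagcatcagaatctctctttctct
PERK15: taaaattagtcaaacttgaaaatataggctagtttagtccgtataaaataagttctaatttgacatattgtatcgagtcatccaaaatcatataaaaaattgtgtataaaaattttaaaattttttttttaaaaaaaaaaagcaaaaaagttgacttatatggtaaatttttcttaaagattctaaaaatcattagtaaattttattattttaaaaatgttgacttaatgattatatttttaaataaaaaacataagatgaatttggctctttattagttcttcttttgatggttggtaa
GDPD2: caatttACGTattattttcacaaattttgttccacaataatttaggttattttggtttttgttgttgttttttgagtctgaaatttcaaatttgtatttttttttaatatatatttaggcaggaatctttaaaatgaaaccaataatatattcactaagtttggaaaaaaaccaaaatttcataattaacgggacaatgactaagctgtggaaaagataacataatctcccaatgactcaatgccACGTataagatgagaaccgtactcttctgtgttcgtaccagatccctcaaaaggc

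None of these 4 windows held a G-box or a PBE-box, AT2G44670 and GDPD2 had 2 ACGT cores each, and FLA16 and PERK15 had none. The other 3, chosen after the matches were seen, are the protein-coding members with a G-box: BGLU6 at chr1:22224359-22224658, SIP2 at chr3:21293172-21293471 and DFR at chr5:17166033-17166332, all on the minus strand. Their G-boxes began 56, 60 and 14 bases before the gene start.
BGLU6: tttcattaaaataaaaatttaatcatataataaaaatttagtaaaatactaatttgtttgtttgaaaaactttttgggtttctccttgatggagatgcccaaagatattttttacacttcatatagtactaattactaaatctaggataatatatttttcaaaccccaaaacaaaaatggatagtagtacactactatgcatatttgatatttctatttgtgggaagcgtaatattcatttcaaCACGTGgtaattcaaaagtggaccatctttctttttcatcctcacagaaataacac
SIP2: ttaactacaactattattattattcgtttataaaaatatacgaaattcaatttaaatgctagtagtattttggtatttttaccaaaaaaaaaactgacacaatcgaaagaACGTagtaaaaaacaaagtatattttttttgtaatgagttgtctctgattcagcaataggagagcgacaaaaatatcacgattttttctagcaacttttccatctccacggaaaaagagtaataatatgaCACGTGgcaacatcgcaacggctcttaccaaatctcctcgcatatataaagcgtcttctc
DFR: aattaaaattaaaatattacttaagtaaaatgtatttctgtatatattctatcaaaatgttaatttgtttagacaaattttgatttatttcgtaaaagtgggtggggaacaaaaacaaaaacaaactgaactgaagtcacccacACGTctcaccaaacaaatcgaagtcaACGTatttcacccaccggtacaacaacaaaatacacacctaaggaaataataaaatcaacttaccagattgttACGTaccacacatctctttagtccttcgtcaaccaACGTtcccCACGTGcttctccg

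Over all 60 genes, 5 windows (8.3%) held a G-box, against 8.0% of the 20730 tested genes with a window, and the other 2 belonged to the non-coding genes AT3G06125 and AT2G41312. A PBE-box was in 8 windows (13.3%, against 13.1%) and an ACGT core in 51.7% against 49.4%. The E-box CANNTG, which takes in both the G-box and the PBE-box, was in 55.0% against 62.9%. Windows with the evening element core AATATCT made up 5.0% against 11.7%, those with the heat shock element core GAANNTTC 18.3% against 11.2%, and those with the ABRE core ACGTGNC 13.3% against 10.6%. The median GC content of the windows was 29.2% against 31.3%. These are matches of letters in a short window and no test was made of them.

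The genes are taken below by role, in groups made after the values were seen, so the groups get no test of their own. The rule picked the genes for both directions, so the calls counted by group are a description. Among all tested genes 16.1% rose and 11.3% fell in wild type under UV-B, and 1.72% rose and 3.54% fell in pif4-101 pif5-1. The 60 genes were spread over the genome, with 17 on chromosome 1, 11 on chromosome 2, 11 on chromosome 3, 10 on chromosome 4 and 11 on chromosome 5, and 58 of the 60 were protein-coding. The nearest neighbours were FMO GS-OX2 and FMO GS-OX3, 4.0 kb apart with 2 genes between them. On the same stretch of chromosome 1, AT1G62510 lay 14.4 kb from FMO GS-OX2 with 3 genes between, and AT1G62660 lay 36.7 kb from FMO GS-OX3 with 13 genes between.

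The 7 genes of flavonoids and other secondary metabolites included the highest UV-B ratio of the 60, and 5 of the 7 rose in wild type under UV-B and 2 fell in pif4-101 pif5-1. TT5 (AT3G55120) encodes chalcone isomerase, which closes the flavanone ring early in flavonoid synthesis, and lies on chromosome 3 from 20430059 to 20431597. It had 289.6, 261 and 246 CPM in wild type under UV-B, 9.02, 12.1 and 12.8 CPM in pif4-101 pif5-1 and 18.6, 21.8 and 17.3 CPM in wild type in white light. In uvr8-6 it had 24.1, 18.3 and 24.2 CPM under UV-B and 17.5, 20.3 and 16.9 CPM in white light, so the 3 UV-B libraries of wild type stood far above every other library and the 3 pif4-101 pif5-1 libraries below every other. Its log2 fold change was 3.95 ± 0.16 (± approximate SE, here and below) for UV-B in wild type and -0.7 ± 0.15 for pif4-101 pif5-1.

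BGLU6 (AT1G60270), named as a beta-glucosidase and known for adding a glucose to flavonol glycosides, had 55.3, 59.9 and 34.6 CPM in wild type under UV-B, 5.86, 9.5 and 8.06 CPM in pif4-101 pif5-1 and 9.52, 23.6 and 13.6 CPM in wild type in white light. AT2G16890, of the UDP-glycosyltransferase family, had 23, 23.9 and 24.1 CPM in wild type under UV-B, 3.12, 2.8 and 2.5 CPM in pif4-101 pif5-1 and 5.92, 3.74 and 5.13 CPM in wild type in white light, and its log2 fold change under UV-B was 2.41 ± 0.24. In both genes the 3 groups did not overlap. DFR (AT5G42800), dihydroflavonol reductase of the anthocyanin branch, had 10.6, 1.75 and 3.68 CPM in wild type under UV-B, 1.5, 0.405 and 1.22 CPM in pif4-101 pif5-1 and 2.62, 3.01 and 0.405 CPM in wild type in white light. Those groups overlapped, the high UV-B mean came from 1 library, and DFR was called in neither comparison.

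The glucosinolate S-oxygenases FMO GS-OX2 and FMO GS-OX3 modify the side chain of these defence compounds. FMO GS-OX2 had 12.8, 13.1 and 5.79 CPM in wild type under UV-B, 2.31, 2.47 and 5.85 CPM in pif4-101 pif5-1 and 6.61, 4.46 and 8.78 CPM in wild type in white light, with overlap in both comparisons. FMO GS-OX3 had 7.6, 3.34 and 3.35 CPM in wild type under UV-B, 1.28, 0.552 and 1.05 CPM in pif4-101 pif5-1 and 1.92, 2.18 and 2.7 CPM in wild type in white light. The pair are close relatives, and how reads shared between them were counted is not stated, so their split is uncertain. NIT1 (AT3G44310), a nitrilase, had 854, 868 and 681 CPM in wild type under UV-B, 308, 365 and 348 CPM in pif4-101 pif5-1 and 536, 543 and 496 CPM in wild type in white light, 3 ranges without overlap.

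TT5 was the 1 flavonoid gene called in both comparisons. Of 19 tested genes on a list of the flavonoid pathway and its regulators, 14 rose and 0 fell in wild type under UV-B (11.3% of all tested genes fell), but 0 rose (1.72% of all tested genes rose) and only TT5 fell in pif4-101 pif5-1, and the list median in that comparison was -0.02. CHS, the entry enzyme, had log2 fold changes of 6.69 for UV-B and -0.21 for pif4-101 pif5-1, and FLS1, flavonol synthase, 6.55 and -0.01. On a list of 40 glucosinolate genes 6 rose and 6 fell in wild type under UV-B, against 16.1% and 11.3% of all tested genes. In pif4-101 pif5-1, 1 rose and 2 fell, against 1.72% and 3.54%.

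**Figure D3:**
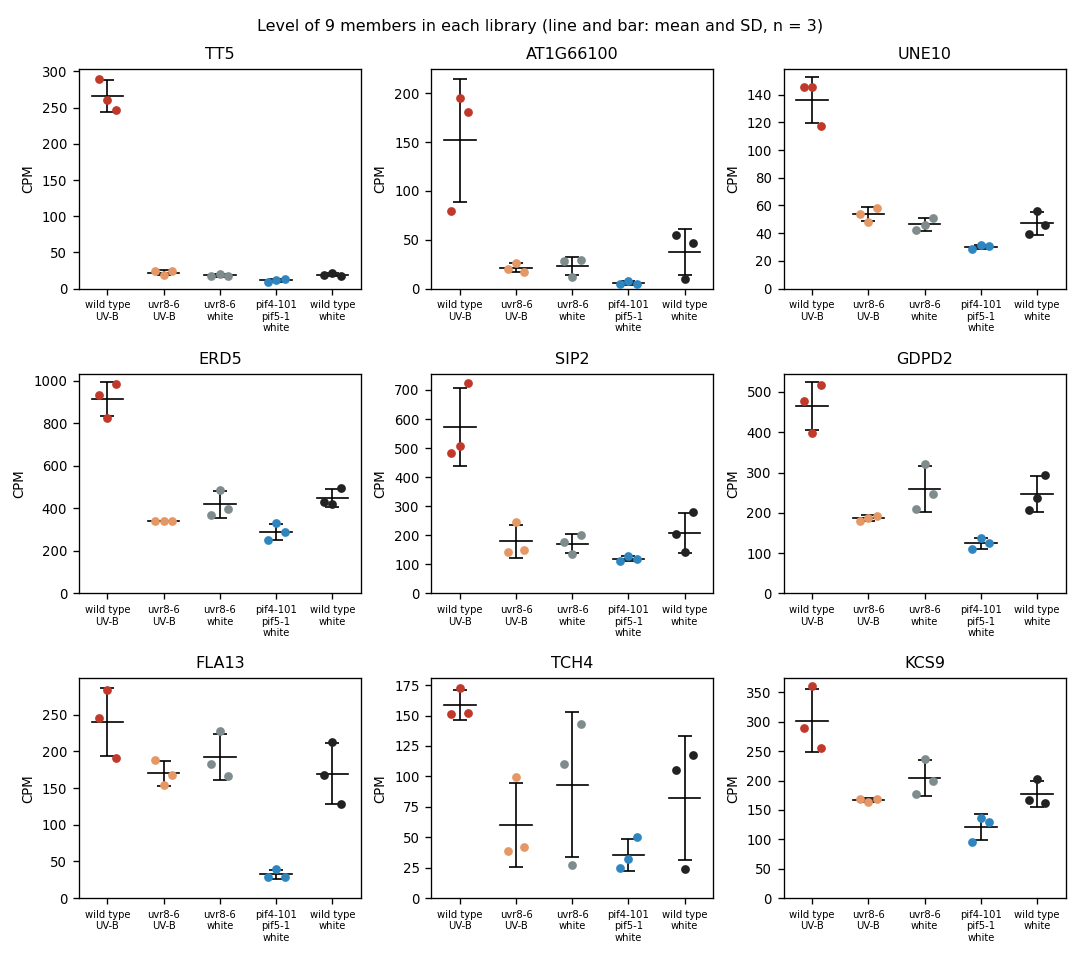
CPM of 9 of the genes in each library, by group, with the mean and SD over 3 libraries as a line and bar. TT5 stands at 246 to 290 CPM in wild type under UV-B and FLA13 at 29.1 to 39.7 CPM in pif4-101 pif5-1, each clear of all other libraries, while TCH4 and AT1G66100 each have 1 low library in both white-light groups of uvr8-6 and wild type.

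The 8 genes of the cell wall and cell surface had UV-B log2 fold changes of 0.65 to 1.09 and pif4-101 pif5-1 log2 fold changes of -2.31 to -0.61. FLA13 (AT5G44130), on chromosome 5 from 17760865 to 17762089, encodes a fasciclin-like arabinogalactan protein, a family of surface proteoglycans of the wall. It had 245, 284 and 191 CPM in wild type under UV-B, 29.1, 39.7 and 29.5 CPM in pif4-101 pif5-1 and 168, 212 and 129 CPM in wild type in white light, and its pif4-101 pif5-1 ratio of 0.195 was the lowest after that of AT1G66100. The pif4-101 pif5-1 libraries were clear of all others, while the UV-B and white-light ranges of wild type overlapped. Its log2 fold changes were 0.65 ± 0.19 for UV-B and -2.31 ± 0.20 for pif4-101 pif5-1.

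The relatives FLA16 and FLA15 had the same order of groups with less loss. FLA16 (AT2G35860) had 122, 140.2 and 91.2 CPM in wild type under UV-B, 37.2, 46.6 and 39.5 CPM in pif4-101 pif5-1 and 80, 96.8 and 72.8 CPM in wild type in white light. FLA15 had 77.6, 71.2 and 46.2 CPM in wild type under UV-B, 15.2, 25.3 and 21.5 CPM in pif4-101 pif5-1 and 27.9, 47.2 and 31.8 CPM in wild type in white light. In both, the wild-type UV-B and white-light libraries overlapped and the pif4-101 pif5-1 libraries lay below.

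TCH4 (AT5G57560), the touch-responsive xyloglucan endotransglucosylase that rejoins wall polymers, had 151, 173 and 152 CPM in wild type under UV-B, 24.7, 32.1 and 50.3 CPM in pif4-101 pif5-1 and 105, 23.8 and 117 CPM in wild type in white light. Wild-type white-light replicate 2 was as low as pif4-101 pif5-1, and TCH4 was called in neither comparison. The pectin methylesterase gene PMEPCRF, the cellulose synthase-like gene CSLG3, the wall acetylation family member TBL19 and the gene of an uncharacterised family, AT4G25830, made up the rest, with pif4-101 pif5-1 log2 fold changes of -0.61 ± 0.21, -0.77 ± 0.20, -1.02 ± 0.23 and -0.64 ± 0.23. Of the 8, 7 rose under UV-B and 4 fell in pif4-101 pif5-1. A list of 37 wall genes includes TCH4 and FLA13. On it 5 rose and 14 fell in wild type under UV-B, against 16.1% and 11.3% of all tested genes. In pif4-101 pif5-1, 0 rose and 10 fell, against 1.72% and 3.54%.

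The 9 genes of lipids, wax and cuticle all rose in wild type under UV-B, and 2 of them, GDPD2 and AT3G48460, fell in pif4-101 pif5-1. GDPD2 (AT5G41080), a glycerophosphodiester phosphodiesterase that acts on deacylated phospholipids, had 477, 399 and 518 CPM in wild type under UV-B, 109, 138 and 126 CPM in pif4-101 pif5-1 and 208, 238 and 295 CPM in wild type in white light. In uvr8-6 it had 179.7, 187 and 193 CPM under UV-B and 210.1, 322 and 246 CPM in white light, the UV-B libraries being the lower ones, a log2 fold change of -0.47 ± 0.16 that was not called. AT3G48460, a GDSL lipase, had 32.5, 37 and 31.5 CPM in wild type under UV-B, 6.71, 7.07 and 6.51 CPM in pif4-101 pif5-1 and 11.7, 11.3 and 9.82 CPM in wild type in white light, with no overlap among the 3.

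KCS9 (AT2G16280), a condensing enzyme that lengthens fatty acids for wax and suberin, had 290.2, 361 and 255 CPM in wild type under UV-B, 96.2, 137 and 129 CPM in pif4-101 pif5-1 and 167, 203 and 161 CPM in wild type in white light. LACS3 (AT1G64400), a long-chain acyl-CoA synthetase, had 21.2, 21.6 and 13.3 CPM in wild type under UV-B, 4.96, 7.62 and 7.56 CPM in pif4-101 pif5-1 and 7.99, 13.4 and 10.6 CPM in wild type in white light. Their pif4-101 pif5-1 log2 fold changes were -0.49 ± 0.14 and -0.59 ± 0.21, neither called. MYB31, a transcription factor of the family that includes regulators of wax synthesis, had 25, 25.1 and 13.5 CPM in wild type under UV-B, 3.12, 7.29 and 6.54 CPM in pif4-101 pif5-1 and 7.99, 14.5 and 11.9 CPM in wild type in white light.

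AT1G62510, a lipid-transfer family protein, had 158, 198 and 349 CPM in wild type under UV-B, 45.4, 36.4 and 37.7 CPM in pif4-101 pif5-1 and 74.8, 31.6 and 81.8 CPM in wild type in white light. Its UV-B log2 fold change was 2.07 ± 0.39, while pif4-101 pif5-1 overlapped wild type because wild-type white-light replicate 2 was low. PLAT1, CYP96A1 and AT1G45010 had UV-B log2 fold changes of 1.27 ± 0.15, 0.77 ± 0.19 and 0.81 ± 0.22. A list of 39 wax and cutin genes includes KCS9 and LACS3. On it 9 rose and 4 fell in wild type under UV-B, against 16.1% and 11.3% of all tested genes. In pif4-101 pif5-1, 1 rose and 8 fell, against 1.72% and 3.54%.

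All 7 genes of carbon, inositol and proline use rose in wild type under UV-B and 3 fell in pif4-101 pif5-1. ERD5 (AT3G30775) encodes proline dehydrogenase, the first step of proline breakdown in mitochondria. It had 932, 825 and 986 CPM in wild type under UV-B, 252, 329 and 287 CPM in pif4-101 pif5-1 and 428, 418 and 498 CPM in wild type in white light. ProT3 (AT2G36590), a proline transporter, had 16.9, 23.7 and 18.8 CPM in wild type under UV-B, 1.84, 2.95 and 2.83 CPM in pif4-101 pif5-1 and 4.98, 9.13 and 5.5 CPM in wild type in white light. Both genes thus had 3 separate ranges, with pif4-101 pif5-1 log2 fold changes of -0.57 ± 0.13 and -1.28 ± 0.25.

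SIP2 (AT3G57520), an alpha-galactosidase that acts on raffinose, had 481, 508 and 726 CPM in wild type under UV-B, 110.0, 127 and 119.8 CPM in pif4-101 pif5-1 and 206, 142 and 279 CPM in wild type in white light. MIOX2 and MIOX4 oxidise myo-inositol to glucuronate, a source of wall sugars. MIOX2 had 201, 149 and 192 CPM in wild type under UV-B, 49.9, 71.9 and 58.6 CPM in pif4-101 pif5-1 and 81.4, 82.1 and 106 CPM in wild type in white light. MIOX4 had 9.87, 9.11 and 16.2 CPM in wild type under UV-B, 3.85, 2.8 and 2.6 CPM in pif4-101 pif5-1 and 6.36, 4.2 and 6.72 CPM in wild type in white light.

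MIOX4 was the gene with the lowest UV-B ratio in uvr8-6, 0.440. It had 3.13, 2.18 and 3.15 CPM in uvr8-6 under UV-B and 6.08, 9.9 and 5.16 CPM in uvr8-6 in white light, with no overlap, and a log2 fold change of -1.32 ± 0.32 that edgeR did not call. AT1G62660, a glycosyl hydrolase of the invertase family, had 584, 778 and 542 CPM in wild type under UV-B, 210.2, 341 and 284 CPM in pif4-101 pif5-1 and 411, 461 and 424 CPM in wild type in white light. AT3G49160, of the pyruvate kinase family, overlapped in both comparisons.

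The 4 membrane transporters rose in wild type under UV-B, and AT5G17700, of the MATE efflux family, also fell in pif4-101 pif5-1. AT5G17700 had 85.4, 76.4 and 40.5 CPM in wild type under UV-B, 8.59, 14.4 and 13.2 CPM in pif4-101 pif5-1 and 23.9, 33.8 and 26.1 CPM in wild type in white light. AT4G04750, of the major facilitator superfamily, had 15.4, 12.8 and 11 CPM in wild type under UV-B, 1.5, 2.39 and 3.12 CPM in pif4-101 pif5-1 and 3.85, 3.94 and 3.41 CPM in wild type in white light. The potassium channel gene KT2/3 and the organic cation transporter gene OCT3 had UV-B log2 fold changes of 1.25 ± 0.20 and 1.24 ± 0.26, and in both pif4-101 pif5-1 overlapped wild type in white light.

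Among the 7 genes of signalling and regulation, 5 rose in wild type under UV-B and 4 fell in pif4-101 pif5-1. UNE10 (AT4G00050), on chromosome 4 from 17639 to 20183, encodes a basic helix-loop-helix protein of the phytochrome-interacting factor family itself. It had 146, 145 and 117 CPM in wild type under UV-B, 28.5, 31.3 and 30.5 CPM in pif4-101 pif5-1 and 39.6, 55.9 and 45.6 CPM in wild type in white light. The 3 ranges were separate, and the log2 fold changes were 1.7 ± 0.11 for UV-B and -0.58 ± 0.11 for pif4-101 pif5-1. In uvr8-6 UNE10 had 54.2, 48.2 and 58.2 CPM under UV-B and 42.2, 45.6 and 51.1 CPM in white light, within or near the wild-type white-light range.

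UNE10 was the only member on a list of 18 tested genes of this family, its cofactors and the phytochromes, of which 5 rose and 5 fell in wild type under UV-B and 0 rose and 4 fell in pif4-101 pif5-1. One of the genes that fell is the mutated PIF5 itself, and the others were HFR1, PIL1 and UNE10. PIF7 had log2 fold changes of 1.13 for UV-B and 0.48 for pif4-101 pif5-1, and PIF3 had -0.83 and -0.25. A list of 36 targets of shade and of these factors held no member. On it 2 rose and 21 fell in wild type under UV-B, and 0 rose and 18 fell in pif4-101 pif5-1. For both lists the shares of all tested genes, in the same order, were 16.1%, 11.3%, 1.72% and 3.54%.

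RGF9 (AT5G64770), the precursor of a root growth factor peptide, had 56.2, 88.4 and 45.2 CPM in wild type under UV-B, 8.63, 16.1 and 17.9 CPM in pif4-101 pif5-1 and 36.1, 37.4 and 35.4 CPM in wild type in white light. PERK15 (AT1G52290), a receptor-like kinase, had 17.9, 23.4 and 15.5 CPM in wild type under UV-B, 4.66, 6.63 and 6.68 CPM in pif4-101 pif5-1 and 12.4, 13.3 and 12.3 CPM in wild type in white light. In each the pif4-101 pif5-1 libraries were below and the UV-B libraries above all wild-type white-light libraries. AT2G44130, of the kelch repeat family, had a pif4-101 pif5-1 log2 fold change of -1.0 ± 0.22. PSK5, a phytosulfokine precursor, had one of -0.86 ± 0.28 that was not called, and the receptor kinase gene RK2 and the NPH3 family gene AT1G67900 were called in neither comparison.

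All 7 genes of defence, stress and protein breakdown rose in wild type under UV-B and 2 fell in pif4-101 pif5-1. AT1G66100, a thionin, one of the small antimicrobial peptides of plants, lies on chromosome 1 from 24605538 to 24606722. It had 79.5, 195 and 180.5 CPM in wild type under UV-B, 4.23, 7.62 and 4.51 CPM in pif4-101 pif5-1 and 54.9, 10.3 and 47.1 CPM in wild type in white light. Its log2 fold changes were 2.15 ± 0.51 for UV-B and -2.75 ± 0.56 for pif4-101 pif5-1, the lowest of the 60. The groups did not overlap, but wild-type white-light replicate 2, at 10.3 CPM, lay near the pif4-101 pif5-1 libraries.

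CEP3 (AT3G48350), a cysteine endopeptidase, had 90.6, 138 and 69.5 CPM in wild type under UV-B, 11.1, 18.6 and 17.9 CPM in pif4-101 pif5-1 and 17.4, 32.4 and 19.4 CPM in wild type in white light. FER1 (AT5G01600), the iron store ferritin, had 104, 252 and 229 CPM in wild type under UV-B, 66.8, 54.2 and 54 CPM in pif4-101 pif5-1 and 108, 70.1 and 114 CPM in wild type in white light. HSP70 (AT3G12580), a chaperone of the HSP70 family, had 113, 147 and 97 CPM in wild type under UV-B, 38.3, 41.4 and 39.8 CPM in pif4-101 pif5-1 and 63.3, 49.5 and 68.9 CPM in wild type in white light. Of these 3, only HSP70 had no overlap in either comparison, and none was called in pif4-101 pif5-1. AT4G24350, of the phosphorylase family, had 29.6, 32.3 and 28.9 CPM in wild type under UV-B, 11, 11.3 and 14.9 CPM in pif4-101 pif5-1 and 18.2, 22.1 and 21.2 CPM in wild type in white light, and it rose and fell in the 2 comparisons. The serine carboxypeptidase-like gene SCPL9 and the LysM-domain gene AT3G52790 rose under UV-B and were not called in pif4-101 pif5-1. A list of 30 genes of oxidative and heat stress includes FER1 and HSP70. On it 10 rose and 0 fell in wild type under UV-B, against 16.1% and 11.3% of all tested genes. By edgeR 0 were called in pif4-101 pif5-1, where 1.72% of all tested genes rose and 3.54% fell.

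The 11 genes with no stated pathway included AT2G44670, annotated as a senescence-associated family protein. It had 47.2, 56.8 and 49.3 CPM in wild type under UV-B, 19.4, 22.7 and 20.3 CPM in pif4-101 pif5-1 and 34.2, 37.4 and 32.2 CPM in wild type in white light, and its SDs of 5.05, 1.71 and 2.64 CPM left the 3 ranges far apart. AT1G68620, of the alpha/beta-hydrolase family, had 9.6, 15 and 13.5 CPM in wild type under UV-B, 2.14, 2.25 and 2.4 CPM in pif4-101 pif5-1 and 10, 3.79 and 9.82 CPM in wild type in white light, the UV-B libraries overlapping those in white light. Its pif4-101 pif5-1 log2 fold change was -1.76 ± 0.45. AT5G01790, an uncharacterised protein, had 9.2, 14.3 and 9.74 CPM in wild type under UV-B, 2.65, 3.35 and 2.27 CPM in pif4-101 pif5-1 and 7.2, 5.5 and 7.9 CPM in wild type in white light. Of the 11, 9 rose under UV-B and 4 fell in pif4-101 pif5-1. The others were AT1G72490, AT2G34810 of the berberine bridge enzyme family, AT4G29110, AT4G30470, AT1G07985, AT1G05870 and the RNAs AT3G06125 and AT2G41312.

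The rule had no condition on pif4-101 pif5-1 against uvr8-6, both in white light, but it used the libraries of both groups. The pif4-101 pif5-1 mean had to be low, and the uvr8-6 white-light mean is the denominator of the capped UV-B ratio, so a high value there helped a gene to enter. The values are therefore a description, and nothing is read from the counts. All 60 log2 fold changes were below 0, with a median of -0.78 and a range of -2.43 to -0.05, where the median over all tested genes was -0.00. AT1G62510, at -0.05, turned to above 0 under 4 alternatives. Of the 60 genes, 37 fell by edgeR, where 6.4% of all tested genes fell. DESeq2 called 42 of the 60, and 3161 of all tested genes in either direction. The 3 pif4-101 pif5-1 libraries lay below the 3 uvr8-6 white-light libraries for 47 of the 60 genes, against 23.9% of tested genes. The count of 37 was 16 without uvr8-6 white-light replicate 3, 24 without uvr8-6 white-light replicate 1, 20 without pif4-101 pif5-1 replicate 1 and 23 without pif4-101 pif5-1 replicate 3. Over all tested genes the calls in either direction went from 2406 to 1133, 1315, 1302 and 1287 in the same order.

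The cell surface genes FLA13 and FLA16 were among those called. FLA13 had 29.1, 39.7 and 29.5 CPM in pif4-101 pif5-1 and 183, 227 and 167 CPM in uvr8-6 in white light, a log2 fold change of -2.43 ± 0.20. FLA16 had 37.2, 46.6 and 39.5 CPM in pif4-101 pif5-1 and 93.1, 92.8 and 85.1 CPM in uvr8-6, a log2 fold change of -1.01 ± 0.13. AT2G44670 had 19.4, 22.7 and 20.3 CPM in pif4-101 pif5-1 and 38.7, 43.3 and 43.4 CPM in uvr8-6, a log2 fold change of -0.88 ± 0.09. In these genes the pif4-101 pif5-1 libraries were below all uvr8-6 libraries, and no alternative ended the calls.

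AT1G66100 had 4.23, 7.62 and 4.51 CPM in pif4-101 pif5-1 and 28.7, 12 and 28.8 CPM in uvr8-6 in white light. Its log2 fold change was -1.97 ± 0.55, which edgeR called. The call was lost under 5 alternatives, among them the replicate number as a block and the omission of pif4-101 pif5-1 replicate 3. TT5 had 9.02, 12.1 and 12.8 CPM in pif4-101 pif5-1 and 17.5, 20.3 and 16.9 CPM in uvr8-6 in white light, a log2 fold change of -0.56 ± 0.15. It was called with all libraries and not under 5 alternatives, among them the omission of pif4-101 pif5-1 replicate 1. MIOX2 too lost its call with the replicate block.

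In white light the uvr8-6 and wild-type libraries, which are the denominators of all the ratios in the rule, gave 0 calls among the 60 genes. The uvr8-6 to wild-type ratio had a median of 1.07 and a range of 0.625 to 1.45, and it was above 1 for 41 genes. By edgeR 0.0144% of all tested genes were called, and DESeq2 called 0 of the 60 and 6 of all tested genes. Of the 60 genes 1 (AT2G44670, log2 fold change 0.21 ± 0.08) had an unadjusted p under 0.05 by edgeR. The share of all tested genes under that cut is not given. A p that missed the threshold does not show that the levels were equal.

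Under UV-B the 60 genes were lower in uvr8-6 than in wild type, which the rule largely fixes. All 60 log2 fold changes of uvr8-6 against wild type under UV-B were below 0, with a median of -1.04, and 44 were called, where 14.4% of all tested genes fell. Within uvr8-6, UV-B against white light gave 0 calls by edgeR, where 1.12% of all tested genes were called. DESeq2 called 1 of the 60 and 640 of all tested genes. By edgeR 5 genes had an unadjusted p under 0.05 (ERD5, MIOX2, MIOX4 and GDPD2, all lower under UV-B, and AT4G24350, higher). The share of all tested genes under that cut is not given, so nothing is read from the 5. The responses of the genotypes, uvr8-6 minus wild type, differed for 29 genes, where 4.88% of all tested genes had a lower response in uvr8-6, with a median difference of -1.04. That count was 17 without replicate 3 of wild type in white light, and also without replicate 3 of uvr8-6 under UV-B or in white light. Over all tested genes the calls in either direction went from 1375 to 950, 940 and 877 in the same order.

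The selection was checked by repeating the rule with each library left out in turn. Between 48 and 78 genes were then found, and between 42 and 59 of the 60 remained among them. The lowest number, 42, came without wild-type white-light replicate 2, and the next, 45, without wild-type UV-B replicate 2. Leaving out wild-type white-light replicate 2 and wild-type UV-B replicate 1 together, both of high FRO5, left 64 genes with 45 of the 60.

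**Figure D4:**
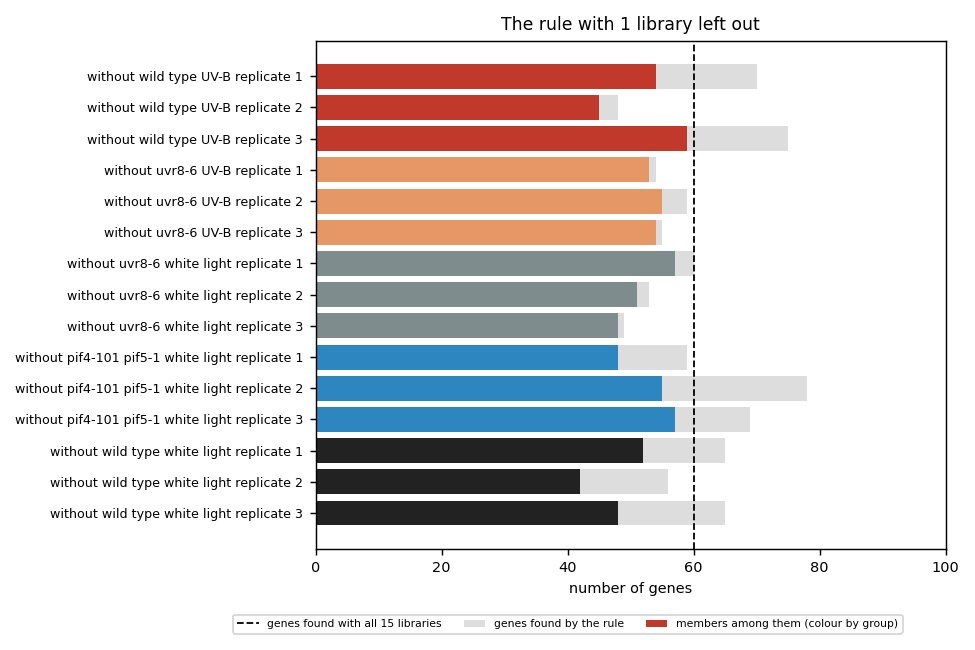
Number of genes found by the rule (grey) and of the 60 genes among them (coloured by the group of the missing library) when 1 library at a time is left out. The dashed line marks the 60 genes found with all 15 libraries; the shortest coloured bar, 42, is the one without wild-type white-light replicate 2.

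The rule kept 13 of the genes in all 15 omissions: AT1G66100, NIT1, ERD5, AT2G16890, AT2G34810, MYB31, AT3G48460, MIOX4, SIP2, AT4G30470, AT4G29110, GDPD2 and TCH4. The least steady were AT1G72490, AT3G52790 and DFR, each kept in 9 of 15. Wild-type white-light replicate 2 was the highest of its group for 34 genes and the lowest for 22. In AT1G66100, AT1G68620, RK2 and TCH4 it was under 0.5 times both other libraries of its group, and the same held for replicate 2 of uvr8-6 in white light, the other white-light library of high FRO5. The part of this difference between libraries in the result was not tested.

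Whole seedlings differ in their share of organs, and in bulk samples fewer cells of a type and less RNA per cell cannot be told apart. None of the 7 mesophyll markers was at 0 in all libraries, and their summed level was 52125 to 63743 CPM in pif4-101 pif5-1 and 31164 to 39713 CPM in wild type in white light. None of the 18 root markers was, and their summed level was 3436 to 7238 CPM in pif4-101 pif5-1 and 6578 to 9772 CPM in wild type in white light. None of the 20 markers of suberin and endodermis was either, and their summed level was 259 to 397 CPM in pif4-101 pif5-1 and 589 to 847 CPM in wild type in white light. Wild type under UV-B had 30387 to 41069 CPM of the mesophyll markers, 6165 to 10120 CPM of the root markers and 534 to 813 CPM of the suberin and endodermis markers. Gene by gene, 0 of the 16 tested root markers rose and 0 fell in pif4-101 pif5-1 by edgeR. Their median log2 fold change was 0.21, so the sums do not show a fall of root markers in general. Of the 7 mesophyll markers 0 rose and 0 fell, with a median of 0.47. Of the 20 suberin and endodermis markers 0 rose and 6 fell, with a median of -0.19. Of 15 guard cell markers 0 rose and 2 fell, with a median of 0.10. Of 9 tested seed markers 0 rose and 0 fell, with a median of 0.51. Among all tested genes 1.72% rose and 3.54% fell in pif4-101 pif5-1. In wild type under UV-B 7 of the 20 suberin and endodermis markers rose and 0 fell, with a median of 0.70. For the root markers 1 rose and 2 fell, with a median of -0.31. For the mesophyll markers 4 rose and 0 fell, with a median of 0.94. Of all tested genes 16.1% rose and 11.3% fell there. Within uvr8-6, 6 of the suberin and endodermis markers rose under UV-B and 0 fell (median 0.74), against 1.12% of all tested genes called. The part of these differences in the results was not tested.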

How the data were processed

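Whole-seedling RNA (400 ng a library) was sequenced with a stranded mRNA kit in single-end reads of 100 bp, per the labels' protocols. TAIR10 is the build in the submitters' processing notes, and HTSeq 0.9.1, STAR 2.5.3a, edgeR 3.22.3 and FastQC 0.11.5 are the tools. Which strand setting was used in counting is not given in the sources used here. The authors deposited raw counts per gene, and a normalized table whose values were treated as signal and used for 1 alternative only.

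From the counts, CPM was computed on column totals for the rule and the values printed. Fits used edgeR 4.0.16 (R 4.3.3) on all 15 libraries with 10 residual degrees of freedom: TMM scaling, its default filter on low counts, the quasi-likelihood F test and Benjamini-Hochberg adjustment over 20833 genes. It was tested on simulated data. Each SE was back-calculated as the absolute log2 fold change over the square root of the F statistic, so it is approximate. DESeq2 1.42.0, other scalings and filters, a replicate block and omission of each library were alternatives. The columns uvr8-6 against wild type and the difference of responses are uvr8-6 minus wild type.

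The members and lists were chosen with earlier results of these data known, so no list got a test. Of 1034 symbols in 33 lists 974 matched; CHI was dropped because it matched another gene. Genes were named by a rule on rank in either ratio, mean level, list membership, calls in both comparisons and nearness to a limit; those of the role paragraphs and the printed G-box promoters outside it were chosen after their values were seen. Promoters were read from the RefSeq TAIR10.1 genome, whose gene starts may differ from those of the counted annotation. Same-numbered samples deviated together between pif4-101 pif5-1 and uvr8-6 in white light (correlations 0.158, 0.187 and 0.141) and, in white light, between uvr8-6 and wild type (0.332, 0.598 and 0.385). Those samples met the criterion for pairing, every correlation over 0.1. Between pif4-101 pif5-1 and wild type in white light 1 of the 3 fell below it (0.0777, 0.187 and 0.171). Correlations between samples of different number were not computed, so whether the number marks a shared plate or day is not settled. The main fits held no replicate term, and the replicate block was an alternative only. Depth of 19.3 to 30.4 M reads per library limits precision mainly for genes under a few CPM.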

Additional observations from a re-analysis of the deposited data

Results flagged for a closer look

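The UV-B responses of uvr8-6 and wild type differed for 29 of the 60 genes by edgeR's test of the difference itself, with a lower response in uvr8-6 for each. The rule had already set an upper bound on the first response and a lower bound on the second, so the count is a description of the selection.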

How the results depend on the processing

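The rule found 60 genes with all libraries, 78 with TMM-scaled CPM, 56 with an offset of 1 CPM, 70 with no offset, 60 with the deposited normalized table and 48 to 78 with 1 library left out. Of the 60 genes, 55 remained with TMM-scaled CPM, 56 with the offset of 1 CPM, 57 with no offset and 60 with the deposited table. CEP3, OCT3, PLAT1, KCS9 and AT1G07985 were those lost with TMM-scaled CPM. With 1 library left out, the calls among the 60 numbered 47 to 54 for UV-B in wild type (53 with all), 9 to 27 for pif4-101 pif5-1 against wild type (22), 0 to 1 for UV-B in uvr8-6 (0), 17 to 31 for the difference of responses (29), 16 to 37 for pif4-101 pif5-1 against uvr8-6 (37), 0 to 0 for uvr8-6 against wild type in white light (0) and 38 to 48 for uvr8-6 against wild type under UV-B (44). The difference of responses gave 17 calls without wild-type white-light replicate 3, and likewise without replicate 3 of uvr8-6 under UV-B or of uvr8-6 in white light. Its calls over all tested genes, in either direction, went from 1375 to 950, 940 and 877 in those omissions. DESeq2 called 36 for pif4-101 pif5-1 against wild type and 1 for UV-B in uvr8-6, and over all tested genes 1798 and 640. A fit of only the compared libraries called 9 for pif4-101 pif5-1 against wild type, and 278 over all tested genes. With edgeR on all libraries the calls over all tested genes were 1095 for pif4-101 pif5-1 against wild type and 233 for UV-B in uvr8-6. The cause was not tested. AT1G62510, at -0.05 for pif4-101 pif5-1 against uvr8-6, gave -0.3046 without uvr8-6 white-light replicate 2 and reversed to 0.0016 with the replicate block, 0.02 without pif4-101 pif5-1 replicate 2, 0.10 without uvr8-6 white-light replicate 1 and 0.15 without replicate 3. With the replicate block the counts were 53, 24, 0, 32, 37, 0 and 49 in the order above. For pif4-101 pif5-1 against uvr8-6 the block ended the calls of AT1G66100 (adjusted p = 0.0532, edgeR) and MIOX2 (adjusted p = 0.0548, edgeR) and added AT2G41312 and AT3G06125. For UV-B in wild type it ended that of AT3G52790 and added AT2G41312, and for pif4-101 pif5-1 against wild type it ended that of AT1G68620 and added AT3G06125, KCS9 and FMO GS-OX3. It added 3 calls in the difference of responses and 5 under UV-B, and ended none there. Wild-type UV-B and white-light libraries of the same number had correlations of -0.325, -0.17 and 0.136, which did not meet the criterion for pairing. Upper quartile scaling moved the median of all genes to -0.11 for UV-B in wild type. Over the 35 genes named by the rule, 22 alternatives and the 3 comparisons of UV-B in wild type, pif4-101 pif5-1 against wild type and pif4-101 pif5-1 against uvr8-6, 2155 values kept direction and side of the threshold, 128 lost the call, 23 gained it and 4 reversed.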
